A study of Mus musculus with 11 samples.

Results

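The 69 genes described here encode proteins of the cytosolic ribosome: 43 belong to the large subunit (symbols Rpl or Rplp) and 26 to the small subunit (symbols Rps). They were taken by symbol from the array annotation, from rows that list 1 gene symbol, leaving out the Rps6k kinases and Rps19bp1. They are 69 of 21143 genes with such a row among 34760 probe sets. Where a gene had several rows, the row with the highest mean over all 11 arrays stood for it. Another 12 ribosomal protein symbols occurred only in rows that list several genes and were not analysed here. The arrays measured RNA of mouse 2-cell embryos in 4 groups of pools of 40. Untreated mutant embryos (3 arrays) came from eggs without Ring1 and Rnf2, and untreated control embryos (3 arrays) from eggs without Ring1 that kept Rnf2. Mutant embryos with α-amanitin (2 arrays) and control embryos with α-amanitin (3 arrays) were kept in this RNA polymerase II inhibitor at 24 µg/ml, from 6 h after fertilization to harvest at 35 h. When untreated embryos were harvested is not stated in the labels. Between treated and untreated embryos, α-amanitin and age at harvest therefore cannot be told apart. Where α-amanitin is said below to raise or lower an mRNA, treated embryos are compared with untreated ones. All groups lack maternal Ring1, carry a paternal genome from wild-type sperm, and share a mixed 129/Sv and C57BL/6J background. Superovulated females were 5 to 10 weeks old and the males that gave sperm 10 to 16 weeks old. Each pool held embryos of several mice, so the animal of origin is not resolved.

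Each ribosomal subunit is built from ribosomal RNA and a fixed set of proteins, mostly present in 1 copy, and the cell makes these proteins from separate mRNAs in matched amounts. Most of these mRNAs begin with a terminal oligopyrimidine tract (TOP), a run of C and U through which mTOR and Larp1 control their translation and stability. Mouse oocytes store ribosomes and degrade much of their maternal mRNA during maturation and after fertilization, and the embryo starts its own transcription by the 2-cell stage. Ring1 and Rnf2 are the alternative ubiquitin ligase subunits of Polycomb repressive complex 1, which represses developmental genes.

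All values are log2 expression values as deposited. They are relative to the other RNA on the same array, so a change shared by all RNA would not be seen, and array medians lay between 4.45 and 4.55. The row of the targeted gene Rnf2 had 5.00, 5.17 and 5.08 in untreated mutant arrays against 6.84, 6.59 and 6.70 in untreated control arrays, and 5.18 and 5.24 against 7.31, 6.89 and 7.02 with α-amanitin. Each mutant array was below each control array, as the labels have it. Ring1 lay between 4.35 and 4.79, near the array median, in all arrays. Of 7 measured oocyte and 2-cell markers, 5 were called higher and 2 lower in untreated mutant embryos. Of all probe sets, 6.8% were higher and 13.7% lower in that comparison. The 10 cumulus and granulosa markers averaged between 4.38 and 4.71 in every array, and the 7 sperm markers between 4.32 and 4.59. In untreated mutant embryos 2 of 10 cumulus markers and 1 of 7 sperm markers were called higher by limma and 1 cumulus marker lower. With α-amanitin 1 oocyte and 2-cell marker and 1 cumulus marker were called higher in mutant than in control embryos. There 5.52% of all probe sets were higher and 3.52% lower. In control embryos α-amanitin raised 5 oocyte and 2-cell markers and 1 sperm marker, and lowered 2 oocyte and 2-cell markers and 1 cumulus marker. It raised 11.4% of all probe sets there and lowered 15.9%. In mutant embryos it lowered 1 oocyte and 2-cell marker, where 2.55% of all probe sets were lower and 1.02% higher. The part of these cells in the results below was not tested. In RNA of pooled embryos, fewer cells with an mRNA and less of it per cell cannot be told apart.

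The start of transcription is where the TOP tract lies, so the windows around the RefSeq start (GRCm38.p6, 40 bases before to 20 after, written on the gene's strand) are shown for members that mark the extremes of the data. Rpl9 and Rpl10a had the largest falls of the large subunit in untreated mutant embryos, and Rps25 and Rps18 those of the small subunit. Rpl27a was the member called higher there, and Rps15a had the largest rise of the small subunit in mutant embryos with α-amanitin. Where a gene had several windows, one with a tract within 5 bases of the start was shown if there was any. Capitals mark the longest run of a C followed by at least 4 pyrimidines.
Rpl9 (chr5:65391412-65391471, minus strand): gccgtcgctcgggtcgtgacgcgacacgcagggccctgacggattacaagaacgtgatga
Rpl10a (chr17:28328431-28328490, plus strand): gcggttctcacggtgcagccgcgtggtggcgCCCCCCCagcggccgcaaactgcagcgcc
Rps25 (chr9:44407674-44407733, plus strand): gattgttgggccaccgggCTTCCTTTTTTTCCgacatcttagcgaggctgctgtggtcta
Rps18 (chr17:33955646-33955705, minus strand): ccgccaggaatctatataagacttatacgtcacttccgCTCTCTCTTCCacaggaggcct
Rpl27a (chr7:109519155-109519214, plus strand): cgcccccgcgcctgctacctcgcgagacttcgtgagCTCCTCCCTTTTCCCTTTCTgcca
Rps15a (chr7:118116128-118116187, minus strand): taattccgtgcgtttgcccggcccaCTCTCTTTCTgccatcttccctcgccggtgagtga
The run was 20 bases long in Rpl27a, 14 in Rps25, 11 in Rps18, 10 in Rps15a and 7 in Rpl10a, and the Rpl9 window held none. Relative to the annotated start it began at -4, -2, -22, -15 and -9 in Rpl27a, Rps18, Rps25, Rps15a and Rpl10a. A tract that began within 5 bases of the start was found in Rpl27a, Rps18 and Rps15a, in Rps15a outside the capitals. The capitals of Rps25, Rps15a and Rpl10a therefore do not mark a tract at the start.

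A window of 250 bases before to 50 after the start was at hand for 52 of the 69 genes. A gene was counted if any of its windows held a match, and the number of windows per gene was not compared. A tract of this kind that began within 5 bases of the annotated start, on the sense strand, was found in 23 of 52 (44.2%), against 21.2% of all 27025 genes with a window. It was found in 13 of 32 large-subunit genes (40.6%) and in 10 of 20 small-subunit genes (50%). Among other short motifs searched on both strands, GGGCGG (the core of an Sp1 site) was in 31 of the 52 genes (59.6%), against 38.2% of all genes. CCGGAAG, the core of an ETS-family site, was in 20 (38.5%), against 9.93%. TATAAA, the TATA box, was in 5 (9.62%), against 15.7%. The longest run of letters that GGGCGG and CCGGAAG share is CGG. A match describes the letters in the window and no more.

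The levels of the 2 subunits ran in the same order across the groups. The median over large-subunit members was 6.76 to 7.62 in untreated mutant arrays, 8.45 to 8.76 in untreated control arrays, 6.32 to 6.55 in mutant arrays with α-amanitin and 5.77 to 5.85 in control arrays with α-amanitin. The median over small-subunit members was 6.83 to 7.73, 9.09 to 9.28, 6.44 to 6.83 and 5.81 to 5.99 in the same groups. The groups did not overlap in the large-subunit median. In the small-subunit median the lowest untreated mutant array and the highest mutant array with α-amanitin were equal to 2 decimals, and no other groups touched. Among untreated mutant arrays, replicate 1 held the highest medians of both subunits and replicate 2 the lowest. Group means below 5, close to the array median and with little room to fall, were held by 4 members in untreated mutant embryos, 2 in untreated control embryos, 10 in mutant embryos with α-amanitin and 16 in control embryos with α-amanitin.

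**Figure D1:**
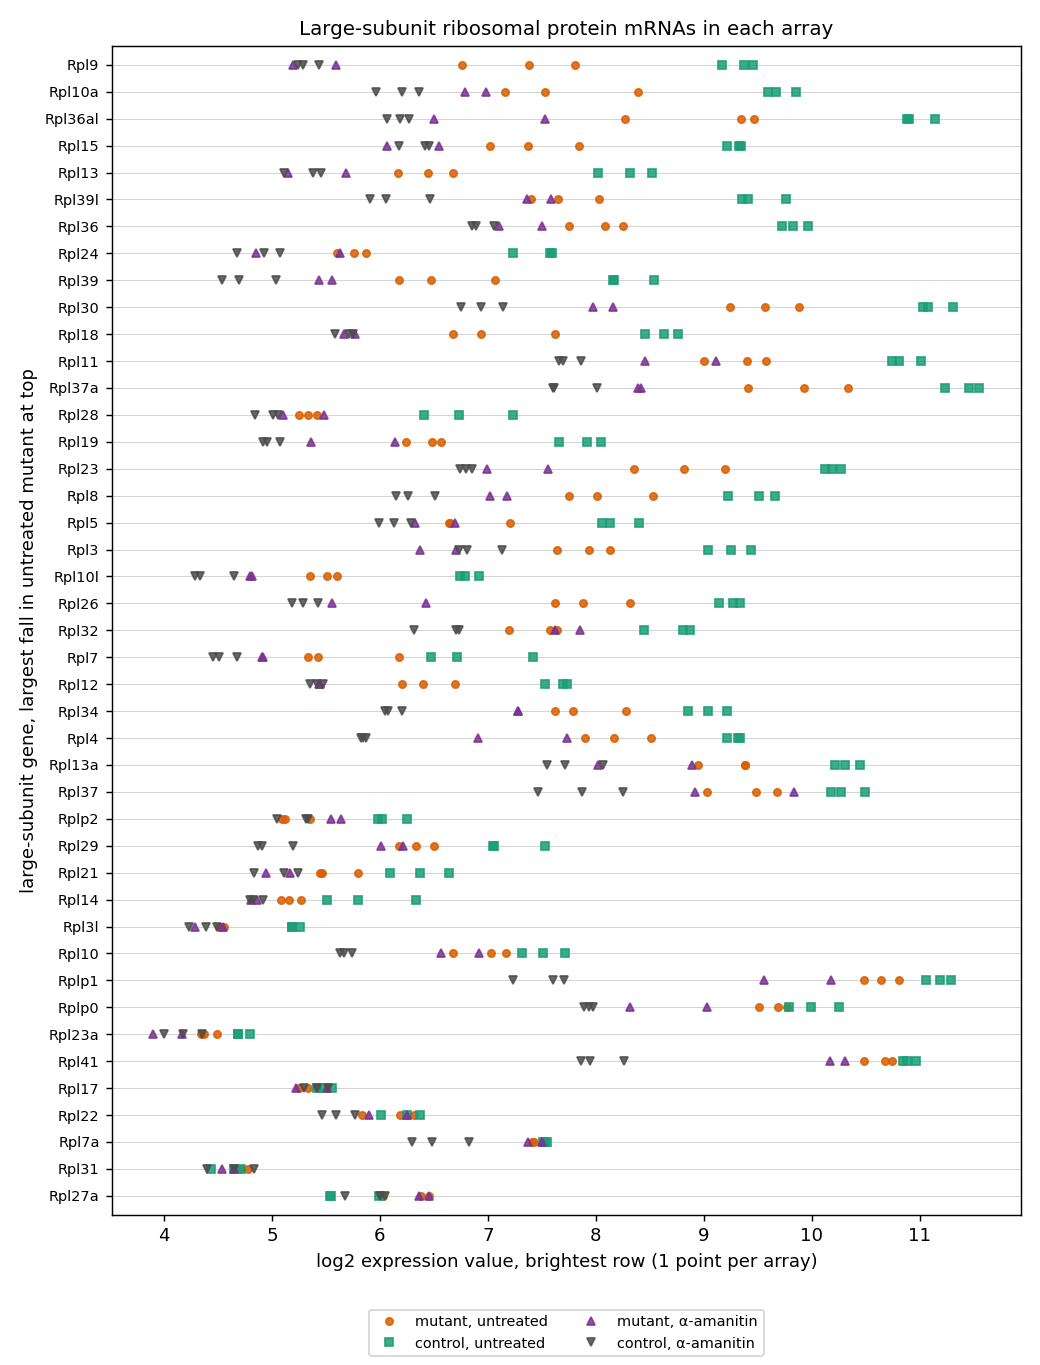
Log2 expression value (horizontal axis) of the brightest row of each large-subunit gene (vertical axis, ordered by the difference in untreated embryos) in each array, with 1 point per array and 4 groups by colour and shape. For most genes the untreated mutant arrays lie left of the untreated control arrays, and the arrays with α-amanitin lie further left, while Rpl27a, at the bottom of the plot, is higher in untreated mutant arrays (6.38, 6.45 and 6.03) than in untreated control arrays (5.55, 5.99 and 5.54).

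**Figure D2:**
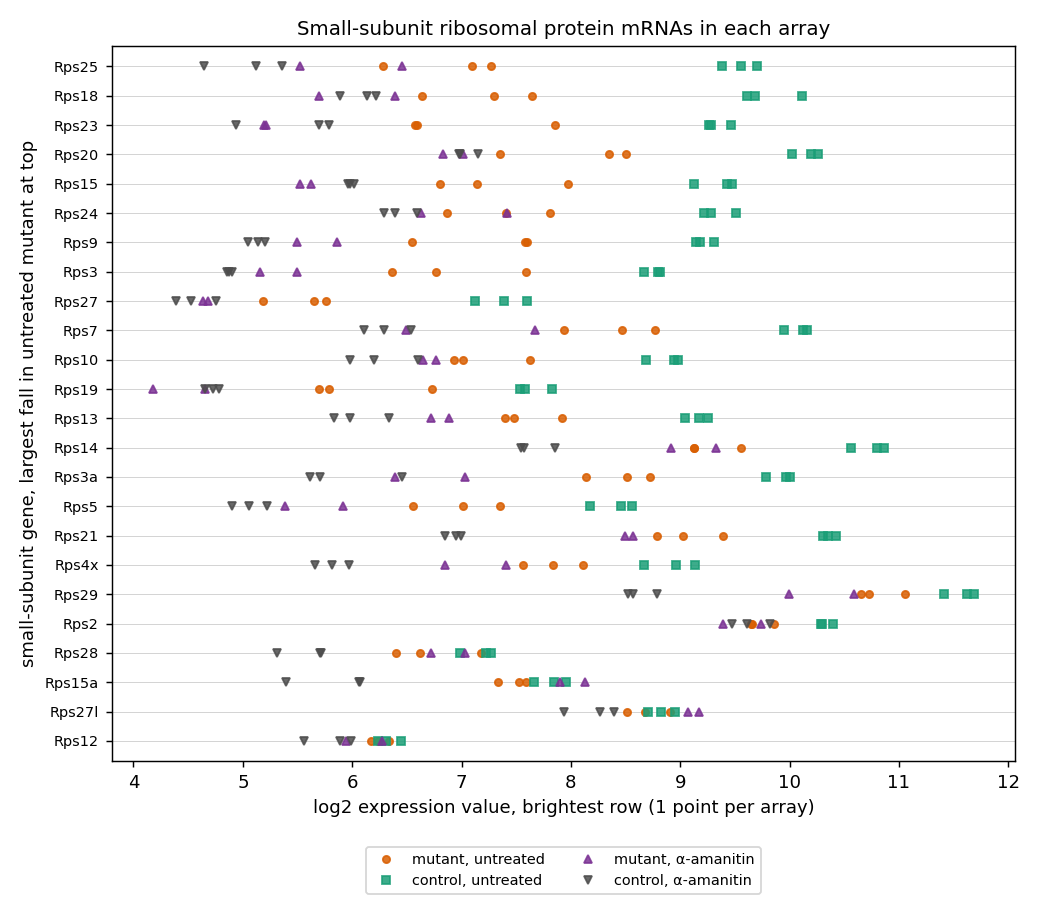
The same plot for small-subunit genes: log2 expression value (horizontal axis) of each gene's brightest row in each of the 11 arrays, ordered by the difference in untreated embryos. Rps25, at the top, reads 6.28 to 7.27 in untreated mutant arrays and 9.38 to 9.70 in untreated control arrays, while for Rps12 and Rps27l, near the bottom, the untreated groups overlap.

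The first comparison asked how ribosomal protein mRNAs differed between untreated mutant and untreated control embryos. Most were lower in mutant embryos. By limma, 57 of 69 members fell and 1 rose at an adjusted p under 0.05, where 13.7% of all probe sets were lower and 6.8% higher. In 62 members the arrays of the mutant all lay below those of the control, against 19.4% of all probe sets, and in 1 all above, against 15.6%. The median log2 difference was -1.37 (2.58-fold lower), against 0.02 over all probe sets. In the large subunit 35 of 43 members fell and 1 rose, with a median of -1.24. In the small subunit 22 of 26 fell and none rose (0 also at an unadjusted p under 0.05), with a median of -1.57. The difference between the subunits was not tested.

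The 2 largest falls were in the small-subunit head, the part that holds the incoming tRNA and turns during translation. Rps25, needed for initiation at some internal ribosome entry sites, read 7.10, 6.28 and 7.27 in mutant arrays against 9.70, 9.55 and 9.38 in control arrays. All mutant arrays lay far below all control arrays, and it fell by 2.66 ± 0.29 (limma log2 difference ± standard error, 6.34-fold, adjusted p = 8.37e-05). Rps18, which reaches across to the large subunit, read 7.65, 6.64 and 7.30 against 10.11, 9.61 and 9.69, and was 6.09-fold lower (-2.61 ± 0.26, limma adjusted p = 4.18e-05). For both genes 4 rows were called lower, of 6 rows of Rps25 and 5 of Rps18, and no row was called higher. Rps20 (1 row) was 4.27-fold lower, and Rps15 (3 of 3 rows), which lies beside the A-site tRNA, 4.1-fold lower. Of the 12 measured head proteins 10 fell, and their median log2 difference was -1.69. Rps12 and Rps28 did not pass, at -0.08 and -0.43.

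In the body and platform of the small subunit 12 of 13 members fell, with a median of -1.51. Rps23, a protein of the decoding centre, read 7.85, 6.59 and 6.58 in mutant arrays against 9.47, 9.28 and 9.26 in control arrays. Replicate 1 stood above the other mutant arrays, yet below all control arrays, and the fall was 2.33 ± 0.32 (2 of 2 rows, limma adjusted p = 0.000324). Rps15a was the member of this group that did not pass, at -0.34 ± 0.17 (limma adjusted p = 0.23), although 1 of its 3 rows was called lower.

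Among large-subunit proteins the falls were led by Rpl9, which sits near the loop of ribosomal RNA where translation factors bind. It read 7.80, 6.76 and 7.39 in mutant arrays against 9.46, 9.17 and 9.37 in control arrays. The groups did not overlap, and it was 4.05-fold lower (-2.02 ± 0.22, 2 of 2 rows, limma adjusted p = 7.46e-05). Rpl10a, the protein of the L1 stalk through which spent tRNA leaves, was 4.03-fold lower (2 of 3 rows). Rpl36al (1 row), Rpl15 (5 of 6 rows) and Rpl13 (4 of 8 rows) were 3.85-fold, 3.68-fold and 3.61-fold lower. Of 6 other core proteins around the peptidyl transferase centre, the tunnel wall and the L1 stalk, all 6 fell, with a median of -1.35.

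The 5S RNP, formed by 5S ribosomal RNA with Rpl5 and Rpl11, is the particle that binds Mdm2 when ribosome assembly is disturbed. Rpl11 read 9.57, 9.00 and 9.40 in mutant arrays against 11.01, 10.81 and 10.74 in control arrays. Rpl5 read 7.20, 6.64 and 6.65 against 8.40, 8.06 and 8.13. The groups did not overlap for either gene. Rpl11 fell by 1.53 ± 0.18 (4 of 6 rows) and Rpl5 fell by 1.37 ± 0.17 (2 of 3 rows).

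The P stalk is a column of acidic proteins on Rplp0 that recruits elongation factors. Of the stalk proteins and Rpl12 at its base, 3 of 4 fell, with a median of -0.71. Rplp1 read 10.81, 10.64 and 10.48 in mutant arrays against 11.29, 11.05 and 11.19 in control arrays. It fell by 0.53 ± 0.17, just past the threshold (2 of 3 rows, limma adjusted p = 0.0499). Rplp2 fell by 0.89 ± 0.11 (2 of 2 rows) and Rpl12 by 1.22 ± 0.12 (2 of 6 rows). Rplp0 did not pass in its brightest row, at -0.36 ± 0.17, although 2 of its 3 rows were called lower.

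Around the rim of the tunnel exit, where the new protein leaves, 3 of 7 measured members fell, with a median of -0.32. Rpl39, which lines the tunnel end, read 7.07, 6.18 and 6.48 in mutant arrays against 8.54, 8.16 and 8.17 in control arrays. It was 3.28-fold lower (2 of 2 rows), and Rpl19 and Rpl26 also fell. Rpl17, Rpl22, Rpl23a and Rpl31 did not pass, with differences between -0.32 and 0.11. In untreated mutant arrays Rpl23a and Rpl31 read between 4.34 and 4.78, near the array median.

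Rpl27a went the other way. Its brightest row read 6.38, 6.45 and 6.03 in mutant arrays against 5.55, 5.99 and 5.54 in control arrays, so that the lowest mutant array exceeded the highest control array by a small margin. It was 1.51-fold higher (0.59 ± 0.16, limma adjusted p = 0.0199). Of its 3 rows 2 were called higher and the dimmest was at -0.16. The call was lost without mutant replicate 1 or 2, or without control replicate 1 or 3, at limma adjusted p of 0.069, 0.0818, 0.0831 and 0.0779. Rps12, not called in its brightest row, had another row that was called higher.

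Ribosomal protein genes have many processed pseudogenes and the 69 genes had 205 rows, so the rows of a gene were compared. Of all 205 rows, 140 were called lower and 3 higher in untreated mutant embryos, with a median log2 difference of -1.06. Of 47 members with several rows, 42 were called, and in 19 of these every row was called the same way. In 40 of the 42 at least 50% of the rows were, and in 0 was a row called the other way. Whether a row also takes up RNA of near-identical copies was not tested.

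**Figure D3:**
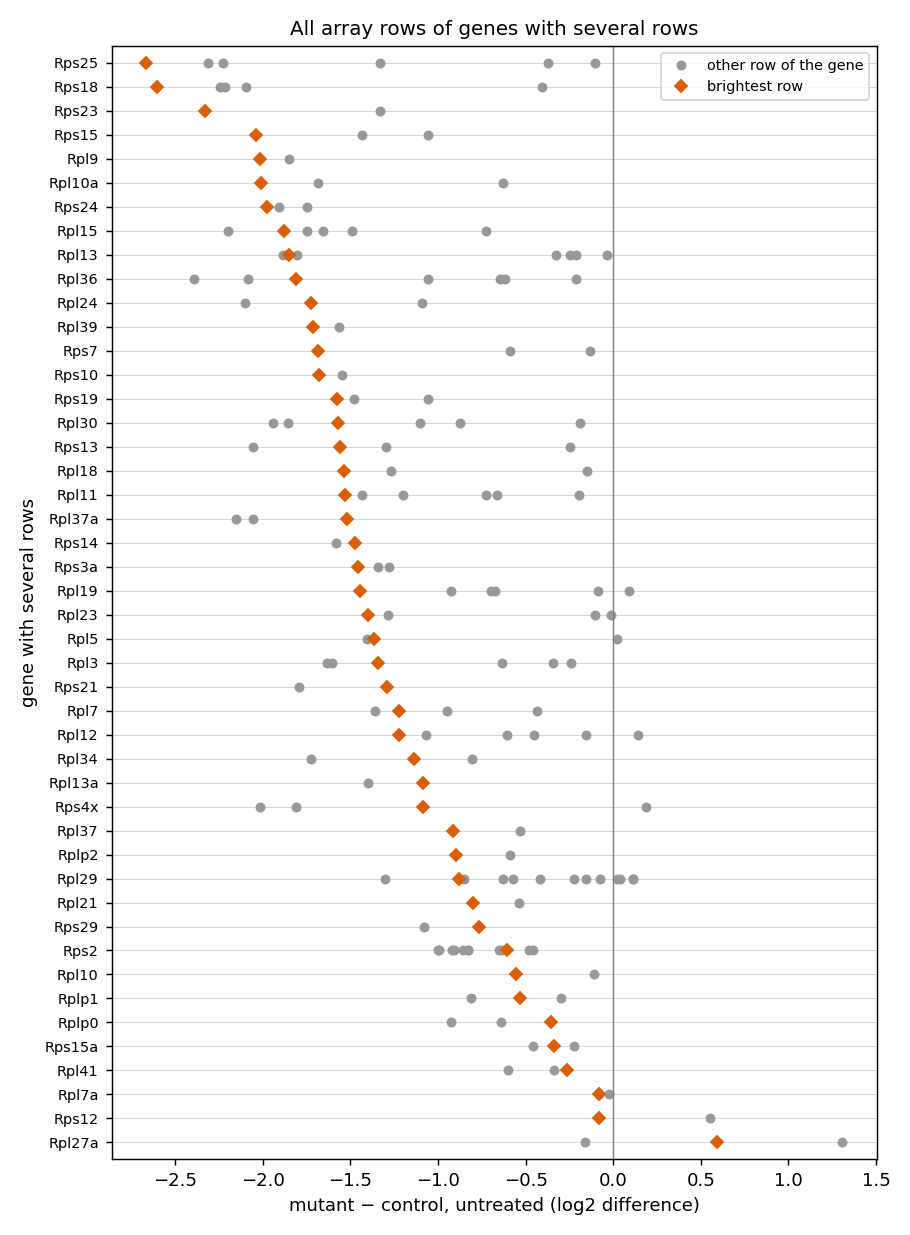
Log2 difference, untreated mutant minus untreated control (horizontal axis), of every row of genes with several rows (vertical axis), with the brightest row as a diamond and the other rows as circles. Most rows lie left of 0, dimmer rows often closer to it, as in Rps25 (brightest row -2.66, other rows between -2.31 and -0.10), and Rpl27a is the gene whose brightest row lies clearly to the right.

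The second comparison set mutant against control embryos that were both held in α-amanitin, in which new transcription was inhibited. Here ribosomal protein mRNAs were higher in the mutant where they were called at all. By limma, 23 of 69 members rose and 0 fell (39 and 0 at an unadjusted p under 0.05), where 5.52% of all probe sets were higher and 3.52% lower. These shares rest on single arrays: 1920 probe sets were higher and 1224 lower, against 2437 and 596 without treated mutant replicate 1 and 1021 and 1388 without replicate 2. The arrays of the mutant all lay above those of the control in 44 members, against 16.8% of all probe sets, and all below in 2, against 13%. The median log2 difference was 0.55 (1.46-fold higher), against 0.01 over all probe sets. In the large subunit 15 of 43 rose, with a median of 0.50, and in the small subunit 8 of 26, with a median of 0.57. The mutant group held 2 arrays, so its spread is judged mainly from the other groups.

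The P stalk protein Rplp1 read 10.18 and 9.55 in mutant arrays with α-amanitin against 7.71, 7.60 and 7.23 in control arrays with α-amanitin. Both mutant arrays stood far above all control arrays, and it was 5.11-fold higher (2.35 ± 0.19, 3 of 3 rows, limma adjusted p = 7.2e-05). Rpl41, the smallest ribosomal protein and a link between the subunits, read 10.31 and 10.17 against 7.95, 8.26 and 7.86, and was 4.64-fold higher (3 of 3 rows). Rplp0 rose by 0.73 ± 0.19 (1 of 3 rows, limma adjusted p = 0.0375), while Rplp2 and Rpl12 did not pass, at 0.36 and 0.03. Of the 5S RNP, Rpl11 rose by 1.05 ± 0.20 (3 of 6 rows) and Rpl5 was at 0.37 ± 0.19.

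Rpl37 (1 of 2 rows), Rpl4 (1 row), a protein of the tunnel wall, and Rpl39l (1 row) were 2.86-fold, 2.78-fold and 2.51-fold higher. The call of Rpl37 was lost without mutant replicate 2 (limma adjusted p = 0.0695). In that array 14.2% of all probe sets exceeded 6, against 11% in replicate 1. Of the 6 other core proteins 3 rose, and of the 7 rim proteins 1, Rpl19, at 0.77.

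In the small subunit the largest rise was that of Rps15a. It read 7.90 and 8.13 in mutant arrays against 6.07, 6.06 and 5.39 in control arrays, with no overlap, and was 4.5-fold higher (2.17 ± 0.19, 2 of 3 rows, limma adjusted p = 0.000116). Rps29, a zinc-binding head protein, read 10.59 and 9.99 against 8.79, 8.57 and 8.52, and was 3.17-fold higher (2 of 2 rows). Rps21 and Rps14, a platform protein whose human counterpart is lost in the 5q- syndrome, were 3.04-fold and 2.77-fold higher, each in 2 of 2 rows. Rps4x was 2.48-fold higher (1 of 4 rows). Of the head 2 of 12 members rose and of the body and platform 5 of 13, with medians of 0.37 and 0.75.

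None of the 5 largest falls of each subunit in untreated mutant embryos was called here. With α-amanitin, Rps18 read 5.70 and 6.39 in mutant arrays against 5.88, 6.22 and 6.13 in control arrays, and the groups overlapped. Rpl9 read 5.20 and 5.59 against 5.44, 5.25 and 5.29, again with overlap. Rps25 was at 0.95 ± 0.33 (limma adjusted p = 0.118), and Rps15 at -0.41 ± 0.26, with both mutant arrays below all control arrays.

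The third comparison set control embryos with α-amanitin against untreated control embryos, whose harvest time is not stated. There 66 of 69 members fell and 0 rose by limma (66 and 0 at an unadjusted p under 0.05), where 15.9% of all probe sets were lower and 11.4% higher. In the same number, 66, every treated array lay below every untreated array, against 19.7% of all probe sets, and in 0 above, against 20.4%. The median log2 difference was -2.91 (7.51-fold lower), against 0.04 over all probe sets. In the large subunit 40 of 43 fell, with a median of -2.55, and in the small subunit 26 of 26, with a median of -3.10. Rpl17, Rpl27a and Rpl31 were not called, at -0.07, 0.21 and 0.03. The single row of Rpl31 read between 4.40 and 4.84 in all arrays, near the array median, where it could hardly show a fall. That of Rpl17 read between 5.23 and 5.56 in all arrays.

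Rpl36al, a neighbour of the exit-site tRNA, read 6.19, 6.27 and 6.07 in treated control arrays against 11.14, 10.88 and 10.90 in untreated control arrays. All treated arrays lay far below all untreated ones, a 27.9-fold fall (-4.80 ± 0.31, 1 row, limma adjusted p = 6.32e-07). Rps25 read 5.36, 5.12 and 4.65 against 9.70, 9.55 and 9.38, and was 22.7-fold lower (5 of 6 rows). Rpl30, an RNA-binding protein that regulates its own splicing in yeast, read 7.14, 6.93 and 6.75 against 11.30, 11.03 and 11.07, and was 18.3-fold lower (5 of 6 rows).

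Rpl9 (2 of 2 rows), Rpl26 (1 row) and Rpl37a (3 of 3 rows) were 16.1-fold, 15.4-fold and 12.7-fold lower. In the small subunit, Rps9 (1 row) and Rps3 (1 row), which line the mRNA entry, were 16.9-fold and 14.8-fold lower. Rps3a (3 of 3 rows), at the mRNA exit, and Rps23 (2 of 2 rows) were 15.9-fold and 14.6-fold lower. The 5S RNP fell in both members, by 3.12 ± 0.18 for Rpl11 and 2.06 ± 0.17 for Rpl5. In the P stalk and its base 4 of 4 fell, with log2 differences between -3.67 (Rplp1) and -0.85 (Rplp2). Of the 7 rim proteins 5 fell, with a median of -0.60. Rpl23a and Rpl31 of this group read at most 4.80 and 4.84 in any array, near the array median.

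The fourth comparison was the same in mutant embryos, with 2 treated and 3 untreated arrays. By limma, 28 of 69 members fell and 0 rose (46 and 3 at an unadjusted p under 0.05), where 2.55% of all probe sets were lower and 1.02% higher. These shares, too, rest on single arrays: 885 probe sets were lower and 353 higher, against 631 and 1277 without treated mutant replicate 1 and 726 and 72 without replicate 2. In 45 members every treated array lay below every untreated array, against 11.7% of all probe sets, and in 3 above, against 14.8%. The median log2 difference was -0.71, against 0.03 over all probe sets. In the large subunit 16 of 43 fell, with a median of -0.68, and in the small subunit 12 of 26, with a median of -0.83. When the spread was estimated from these 2 groups alone, 0 members passed (lowest adjusted p 0.0592, with 42 lower and 3 higher at an unadjusted p under 0.05). The count was 18 without untreated mutant replicate 1, and also 18 without treated mutant replicate 1.

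Rpl36al read 6.50 and 7.53 in treated mutant arrays against 9.35, 8.27 and 9.47 in untreated mutant arrays, and was 4.03-fold lower (-2.01 ± 0.35, limma adjusted p = 0.0103). Rpl26 read 5.56 and 6.43 against 8.32, 7.62 and 7.88, and was 3.85-fold lower. The arrays of the groups did not overlap for either gene, but the treated arrays lay far apart from each other. Rpl9 (1 of 2 rows), Rpl23 (1 of 4 rows) and Rpl30 (2 of 6 rows) were 3.79-fold, 2.85-fold and 2.82-fold lower. Rpl23 and Rpl30 did not pass when all rows of a gene were averaged, at limma adjusted p of 0.104 and 0.0618.

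In the small subunit, Rps23 (1 of 2 rows) and Rps3a (3 of 3 rows) were 3.5-fold and 3.35-fold lower. The call of Rps23 was lost without either treated mutant array, at limma adjusted p of 0.0561 and 0.098. Rps15 (3 of 3 rows) and Rps19 (2 of 3 rows) were 3.33-fold and 3.15-fold lower. Mutations of the human counterpart of Rps19 cause Diamond-Blackfan anaemia. Neither 5S RNP protein passed. In the P stalk Rplp0 and Rpl12 fell by 0.99 each, while Rplp1 and Rplp2 were at -0.78 and 0.40. Rps15a was at 0.53 ± 0.19, with both treated arrays (7.90 and 8.13) above the untreated ones (7.59, 7.53 and 7.33), and did not pass (limma adjusted p = 0.199).

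Across the 69 members the α-amanitin differences in mutant and in control embryos, which share no arrays, correlated at a Pearson r of 0.758 and a Spearman rho of 0.804. The corresponding r was 0.767 in the large and 0.751 in the small subunit. The same rows, and so their brightness and floor, enter both. The genotype differences without and with α-amanitin, which also share no arrays, correlated at an r of 0.239 over all members, 0.0758 in the large and 0.467 in the small subunit.

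**Figure D4:**
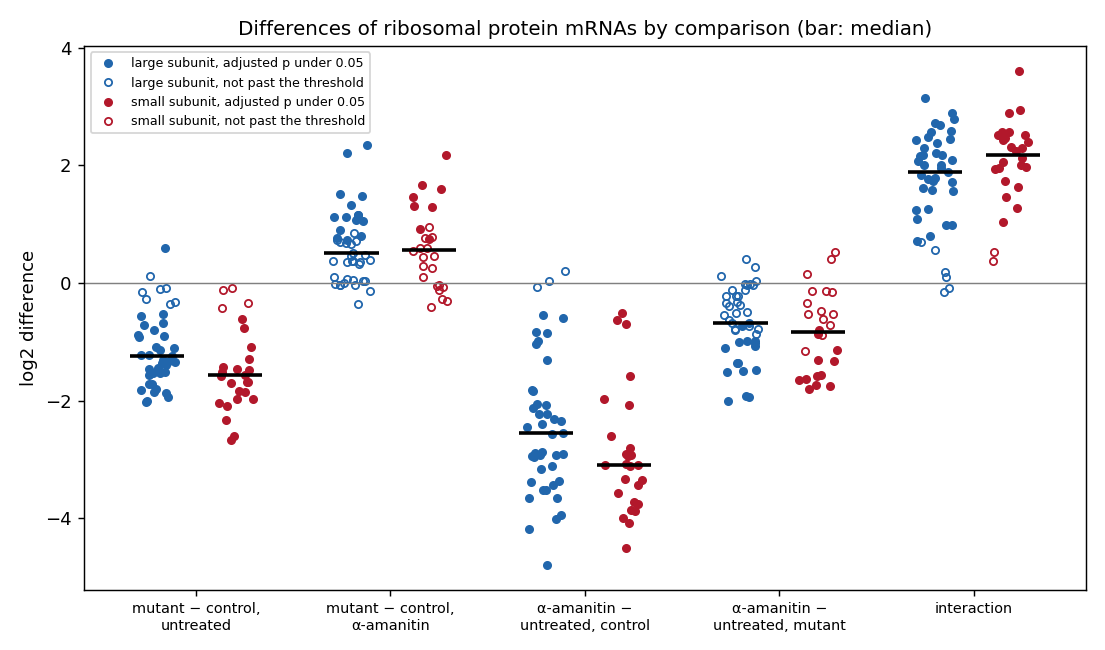
Log2 difference (vertical axis) of each member in the 5 comparisons (horizontal axis), large subunit in blue and small subunit in red, filled where the adjusted p is under 0.05, with a bar at the median. The medians are -1.24 and -1.57 for mutant minus control without α-amanitin, 0.50 and 0.57 with it, -2.55 and -3.10 for α-amanitin minus untreated in control and -0.68 and -0.83 in mutant embryos, and 1.88 and 2.19 for the interaction.

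The interaction tested whether the genotype difference with α-amanitin differed from that without. It was positive in 61 of 69 members and negative in 0 by limma (64 and 0 at an unadjusted p under 0.05), where 10.9% of all probe sets were called positive and 3.47% negative. The median was 2.00 on the log2 scale, against -0.01 over all probe sets. By subunit 37 of 43 large and 24 of 26 small members were called, with medians of 1.88 and 2.19. The largest values were those of Rps25, at 3.61 ± 0.44 (limma adjusted p = 0.000339), and of Rpl39l, at 3.14 ± 0.28 (limma adjusted p = 8.49e-05). Rps14 and Rps21 followed at 2.94 and 2.90, and Rplp1 and Rpl36al at 2.89 and 2.79.

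Members reached such values in different ways. Rps25 was far lower in untreated mutant embryos (-2.66) and did not pass with α-amanitin (0.95). Rplp1 was hardly lower untreated (-0.53) and far higher with α-amanitin (2.35). Rps14 and Rps21 moved in both comparisons, at -1.47 and -1.29 untreated and at 1.47 and 1.60 with α-amanitin. In all, 17 members were lower untreated and higher with α-amanitin, and 40 were lower untreated and not called with it. Of all probe sets 13.7% were lower untreated and 5.52% higher with α-amanitin. The share with both calls was not counted over all probe sets, so the joint counts have no background here. Rpl41, Rpl7a, Rplp0, Rps15a, Rps27l and Rps28 were not called untreated in their brightest rows and were higher with α-amanitin. Other rows of Rpl41 (-0.60), Rps15a (-0.46) and Rplp0 (-0.64 and -0.92) were called lower untreated. Rpl27a was higher untreated and not called with it. Rpl17, Rpl22, Rpl23a, Rpl31 and Rps12 were called in neither, although another row of Rps12 was called higher in both (0.55 and 0.72).

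**Figure D5:**
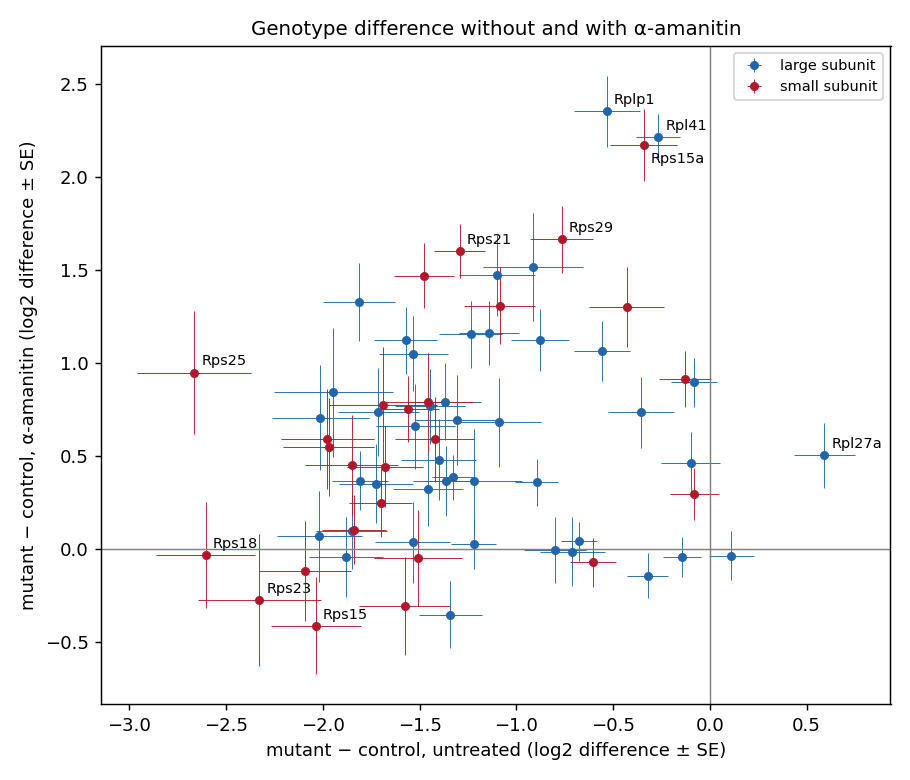
Log2 difference, mutant minus control, ± standard error, without α-amanitin (horizontal axis) and with it (vertical axis), for each of the 69 members, large subunit in blue and small subunit in red. Rplp1, Rpl41 and Rps15a lie at the top, with brightest-row differences of 2.35, 2.21 and 2.17 with α-amanitin and of -0.53, -0.27 and -0.34 without. Rps25 lies furthest left at -2.66, and Rpl27a alone lies clearly right of 0.

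The order of the group levels was then read for each member. The means ran from high to low as untreated control, untreated mutant, mutant with α-amanitin and control with α-amanitin in 49 of 69 members, 33 of the large and 16 of the small subunit, against 8.41% of all probe sets. In 26 members, 17 large and 9 small, every array of each group lay above every array of the next, against 1.29% of all probe sets. Rpl37a was one of these, at 10.33, 9.41 and 9.93 in untreated mutant, 11.55, 11.23 and 11.45 in untreated control, 8.39 and 8.42 in treated mutant and 8.01, 7.60 and 7.62 in treated control arrays. Rps15a was an exception, since its treated mutant arrays were its highest but for 1 untreated control array at 7.96, which lay between them.

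Several members have a paralogous copy, and some of these copies are known mainly from few tissues. Rpl39l, a testis-enriched copy of Rpl39, read 8.03, 7.65 and 7.40 in untreated mutant arrays against 9.76, 9.35 and 9.41 in untreated control arrays. With α-amanitin it read 7.37 and 7.58 in mutant arrays against 6.47, 6.06 and 5.91 in control arrays. Rpl39l and Rpl39 fell alike in untreated mutant embryos, by 1.81 ± 0.19 and 1.71 ± 0.21. With α-amanitin Rpl39l rose by 1.33 ± 0.21 (1 row), and the brightest row of Rpl39 did not pass, at 0.74 ± 0.24. That row read 5.04, 4.70 and 4.54 in treated control arrays, near the array median. The other row of Rpl39 was at 1.44 and did not pass either (limma adjusted p = 0.0505). The difference between these genes was not tested.

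Rps27 has a copy, Rps27l, which is a p53 target. Rps27 read 5.76, 5.18 and 5.65 in untreated mutant arrays against 7.60, 7.39 and 7.12 in untreated control arrays, a fall of 1.84 ± 0.17 (1 row). Rps27l read 8.91, 8.68 and 8.51 against 8.95, 8.82 and 8.71, with overlapping groups and a difference of -0.13 ± 0.13 (1 row). With α-amanitin Rps27l rose by 0.92 ± 0.15 in mutant over control embryos, while Rps27 was at 0.10 ± 0.19. Rps27 then read 4.64 and 4.68 in mutant arrays against 4.53, 4.39 and 4.76 in control arrays, near the array median in both groups, where its row could hardly show a difference. The difference between Rps27 and Rps27l was not tested.

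Rpl10, which joins the large subunit late in its assembly, fell by 0.56 ± 0.15 in untreated mutant embryos (1 of 2 rows), and its retrocopy Rpl10l, known from the testis, by 1.33 ± 0.11 (1 row). With α-amanitin Rpl10 rose by 1.06 ± 0.16, and Rpl10l was at 0.39 ± 0.12. Rpl3 and the muscle copy Rpl3l fell by 1.34 ± 0.16 (3 of 6 rows) and 0.68 ± 0.09 in untreated mutant embryos, Rpl3l from a row that read at most 5.26 in any array. With α-amanitin neither passed, at -0.35 and 0.04. Rpl22 was called in control embryos with α-amanitin (-0.60) and in no other comparison, whereas its copy Rpl22l1, outside the symbol rule, fell by 0.84 ± 0.12 in untreated mutant embryos. Rpl7 and its copy Rpl7l1, also outside the rule, fell by 1.22 ± 0.25 (4 of 4 rows) and 1.37 ± 0.14.

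Ribosomal proteins and copies whose symbols the rule does not take moved as well. Of 5 measured, all 5 (Rpsa, Fau, Gnb2l1, Rpl22l1 and Rpl7l1) fell in untreated mutant embryos, with a median of -1.34, where 13.7% of all probe sets were lower. Gnb2l1, the scaffold protein Rack1 of the small subunit, read 8.31, 7.86 and 8.21 in mutant arrays against 9.64, 9.34 and 9.42 in control arrays. It and Fau rose with α-amanitin in mutant over control embryos, by 1.67 ± 0.21 and 1.03 ± 0.14, where 5.52% of all probe sets were higher. With α-amanitin all 5 fell in control and 3 in mutant embryos, where 15.9% and 2.55% of all probe sets were lower. All 5 were called positive in the interaction, where 10.9% of all probe sets were.

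Chaperones and importers carry new ribosomal proteins to the nucleus or protect them until assembly. The list described here is broad and not confined to factors dedicated to ribosomal proteins. Of its 15 genes 10 fell and 0 rose in untreated mutant embryos by limma (10 and 0 at an unadjusted p under 0.05). The median of the list was -0.54, and 13.7% of all probe sets were lower. With α-amanitin 1 rose (Aamp, 1.67) and 1 fell (Ipo9, -0.65) in mutant over control embryos, where 5.52% of all probe sets were higher and 3.52% lower, so these counts are near the background. In control embryos α-amanitin lowered 10 and raised 1, where 15.9% of all probe sets were lower and 11.4% higher. In mutant embryos it lowered 1, where 2.55% were lower, and 9 were called positive in the interaction, where 10.9% were. Tsr2, the chaperone of Rps26, had the largest fall of the list in untreated mutant embryos. It read 5.12, 4.53 and 4.69 in mutant arrays against 7.05, 6.68 and 6.65 in control arrays.

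Another list held 17 other genes with a TOP tract, mostly translation factors. It shares Naca, Btf3 and Nap1l1 with the list of chaperones and importers, so the 2 lists are not separate. In untreated mutant embryos 6 of the 17 fell and 1 rose, with a median of -0.43, where 13.7% of all probe sets were lower and 6.8% higher. Pabpc1, the poly(A)-binding protein, read 7.29, 6.59 and 6.90 in mutant arrays against 8.63, 8.41 and 8.68 in control arrays, and fell by 1.65 ± 0.17. Eef1b2, an elongation factor subunit, rose by 0.44 ± 0.14 untreated and by 1.81 ± 0.16 with α-amanitin. With α-amanitin 3 of the 17 rose in mutant over control embryos, where 5.52% of all probe sets were higher. In control embryos α-amanitin lowered 11 of them, where 15.9% of all probe sets were lower, and in mutant embryos 1, where 2.55% were. Eef1a1 and Tpt1, classic TOP genes, were called in no comparison.

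Among 12 regulators of TOP mRNAs, 8 fell and 0 rose in untreated mutant embryos (8 and 0 at an unadjusted p under 0.05), with a median of -0.40, where 13.7% of all probe sets were lower. Larp1, which binds the TOP tract, fell by 1.93 ± 0.11, and Rheb, the activator of mTOR, by 0.81 ± 0.15. Mtor itself was at -0.14 ± 0.08 and did not pass. With α-amanitin 2 fell in mutant over control embryos, Rptor and Rps6kb1, by 0.44 and 0.71, where 3.52% of all probe sets were lower. In control embryos α-amanitin lowered 5, where 15.9% of all probe sets were lower. In mutant embryos it lowered 0 by limma (1 lower and 1 higher at an unadjusted p under 0.05), where 2.55% were lower.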

How the data were processed

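RNA of 11 embryo pools was amplified by whole-transcriptome amplification and hybridised to Affymetrix whole-transcript arrays, 1 pool per array, per the labels' protocols. The authors deposited log2 values between 1.11 and 12.8, made with R 2.10.0 and the affy package, per the submitters' processing notes. Background correction and normalization are not stated there, no detection calls were at hand, and no spike-in was used. The number of arrays limits the precision, and the labels call replicates biological.

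The annotation listed 34729 of 34760 probe sets, 22856 with 1 symbol, 1756 with several and 10117 with none. The 69 members had 205 rows: 22 members had 1 row and 47 several, at most 13. Another 155 rows that list a member with another symbol were left out. An Entrez identifier was found in the RefSeq gene table for 64 members, and 63 symbols were current. The row of Rplp2 listed more than 1 identifier. Promoter windows are RefSeq's (GRCm38.p6).

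The model was limma's (version 3.58.1, R 4.3.3), with a mean for each group, all 11 arrays and empirical Bayes moderation (7 residual and 3.59 prior degrees of freedom, no filter). Benjamini-Hochberg adjustment of 2-sided p-values ran over 34760 probe sets, with 0.05 as the threshold. The fit was checked on simulated data. Lists are described by counts and medians without a set test. Named were the 5 largest rises and falls per subunit and pairwise comparison whose arrays did not overlap, the 3 largest of the interaction, members called against the majority, the 5S RNP, the P stalk and paralog pairs. Some members are counted but not reported here by name or in the plots of single genes. Other genes, and Rps15a among the printed windows, were named after their values were seen. Members and lists were chosen with earlier results of these data known. Alternatives were quantile normalization, median centring, the brighter 50% of probe sets, a trended prior, a replicate block, the mean of all rows of a gene, the groups compared alone and leaving out each array.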

Additional observations from a re-analysis of the deposited data

Results flagged for a closer look

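The genotype difference of ribosomal protein mRNAs was not the same without and with α-amanitin, by limma's interaction term. The interaction was past the threshold, with a positive value, in 37 of 43 large-subunit members and in 24 of 26 small-subunit members. Of all probe sets 10.9% were called positive and 3.47% negative. Among the largest of the large subunit were Rpl39l at 3.14, Rplp1 at 2.89 and Rpl36al at 2.79 on the log2 scale. In the small subunit they were Rps25 at 3.61, Rps14 at 2.94 and Rps21 at 2.90. For Rps25 the genotype difference was 0.95 ± 0.33 with α-amanitin and -2.66 ± 0.29 without. Treated mutant replicate 2, 1 of 2 arrays of its group, had 14.2% of all probe sets above 6, against 11% in replicate 1. Without it the median interaction of the large subunit was 1.63, and without replicate 1 it was 2.17. Groups of 2 or 3 arrays are too small for a search for single outlying arrays.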

How the results depend on the processing

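No subunit median changed direction under any alternative run, but splits over all probe sets did. Genes named by size, or as called against the majority, kept their direction in the comparison they were named for. Other named genes were not followed in this way. Rpl17 changed direction for α-amanitin in control embryos, from -0.07 in the main fit to a higher call under quantile normalization. Without 1 array at a time, untreated mutant embryos had 54 to 58 members lower and 0 to 1 higher than control embryos, and 17 to 26 were higher with α-amanitin. α-amanitin lowered 66 members in each such fit in control embryos and 18 to 32 in mutant embryos, and 57 to 61 were called in the interaction. With only the groups compared, 0 members were lower with α-amanitin in mutant embryos. Under quantile normalization 1 member was lower in mutant embryos with α-amanitin (Rpl3) and 2 were higher with α-amanitin in control embryos (Rpl17 and Rpl27a). It gave 54 members lower without α-amanitin. It also moved the share of higher calls among all probe sets from 33.2% to 52.4% for genotype without α-amanitin, from 61.1% to 49% with it, from 41.7% to 56.8% and from 28.5% to 40.7% for α-amanitin in control and mutant embryos, and from 75.8% to 46.2% for the interaction. Without 1 array at a time this share was 42.4% (without treated mutant replicate 2) to 80.3% for genotype with α-amanitin, and 9.02% (without treated mutant replicate 2) to 66.9% (without replicate 1) for α-amanitin in mutant embryos. Deviations from the group means were correlated between arrays of different groups. Among the groups of 3 arrays, same-numbered arrays correlated at 0.03 to 0.15 and different-numbered arrays at -0.12 to 0.04. Same-numbered pairs with a treated mutant array lay at -0.22 to -0.02, but the deviations of that group's 2 arrays mirror each other. The main fit did not pair arrays. Whether equal numbers mark a shared batch was not tested. With the replicate block, 56 members were lower and 1 was higher untreated, 22 were higher with α-amanitin, 66 and 23 were lower with α-amanitin in control and mutant embryos, and 60 were called in the interaction. Of the calls of genes named by size or against the majority, 11 were lost with only the groups compared and 2 with the mean of all rows. None of these calls was lost under quantile normalization, median centring, the brighter 50%, the trended prior or the block. Calls of other named genes were not followed. With the mean of all rows, the large-subunit median for α-amanitin in mutant embryos was -0.41, against -0.68 with the brightest rows. The cause was not tested. Dim rows and the unknown normalization limit the folds.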
